A study of Mus musculus with 4 samples.

Results

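The Trim genes of the mouse were examined for Runx3 occupancy in splenic CD4+ dendritic cells (DC). Members were all protein-coding genes of the GENCODE M1 annotation on mm9 whose symbol is Trim followed by a digit, which gave 68 gene records under 67 symbols, out of 22367 protein-coding records. Trim30b has 2 records. A gene was counted as bound where the centre of a Runx3 peak lay in the gene body or within 10 kb of the transcription start site (TSS) of any of its transcripts, and 31 Trim records under 30 symbols met this rule. They held 43 of the 15121 peaks of the deposited list.

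The peaks come from ChIP-seq of CD4+ DC with high CD11c and MHCII that were sorted from spleens of about 15 C57BL/6 mice, a wild type (WT) population. A home-made polyclonal antibody to Runx3 was used in 2 immunoprecipitates, and sonicated chromatin of whole cell extract (WCE) was the control in 2 samples, of which 1 is labelled C57BL/7. MACS2 was run once with both immunoprecipitates against both controls, so a peak has a position and a score but no value for each replicate. No spread between replicates could therefore be given, no test was run, and intervals on shares cover counting error alone. The list holds no expression values against which the sorted cell type could be checked.

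TRIM proteins carry a tripartite motif of a RING finger, B-box domains and a coiled coil, followed in most members by a C-terminal domain that selects the target. The RING finger makes most of them E3 ubiquitin ligases, which receive ubiquitin from an E2 enzyme and pass it to a substrate. Many members with a SPRY domain act in innate immunity: they bind viral proteins or tag sensors such as RIG-I with ubiquitin, and a number of them are induced by interferon. Runx3 binds DNA through its Runt domain, and the canonical site of RUNX proteins is TGTGGT.

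Bound Trim records made up 45.6% of the family (Wilson 95% interval 34.3 to 57.3), and 39.9% of all protein-coding genes had a peak by the same rule. The background share lay inside the interval of the family. With peaks within 10 kb of a TSS alone, 28 Trim records (41.2%) were bound, beside 36.7% of all genes. Peaks centred no more than 1 kb from a TSS were found at 18 Trim records (26.5%), beside 24.9% of all genes. At least 2 peaks were held by 16 Trim records (23.5%), and by 16.0% of all genes. A peak with a score at or above the upper quartile of the whole list, 23.2, was held by 9 Trim records (13.2%), and by 13.9% of all genes. Each background share lay inside the Wilson interval of its Trim share. For at least 2 peaks that interval was 15.0 to 34.9, and several of these records share their peaks with other Trim records.

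Trim peaks were ordinary in strength. The score that MACS2 wrote had a median of 12.7 over the 43 Trim peaks (quartiles 8.83 and 18.1, range 3.17 to 131.68), beside a median of 12.1 over all peaks (quartiles 7.2 and 23.2). No source used here names its unit, so scores were compared within the list alone. Scores at or above the list median were reached by 22 Trim peaks, and 9 reached the upper quartile. Their median width was 408 bp, against 406 bp for all peaks. Strength was unevenly spread within the family: a peak in Trim17 ranked 64 among all 15121, and no other Trim peak was among the 500 strongest.

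**Figure D1:**
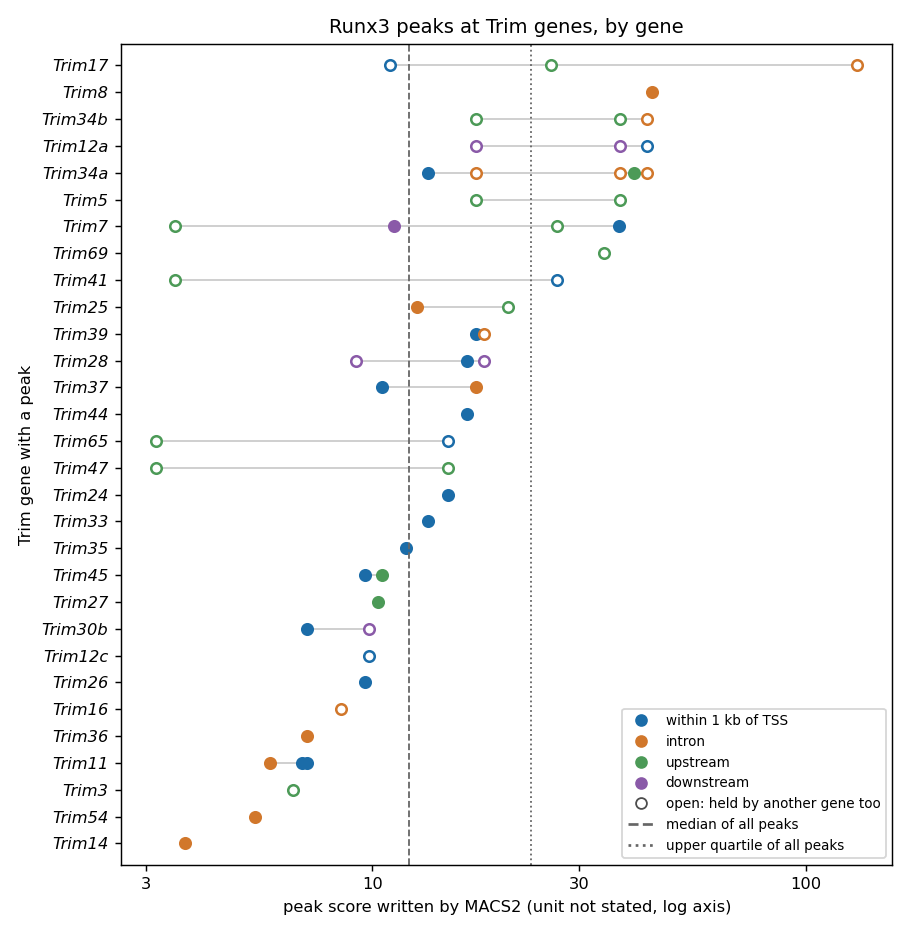
Scores of the Runx3 peaks at each bound Trim gene (log axis, unit not stated), coloured by position relative to that gene, with open circles for peaks that another protein-coding gene also holds. The Trim17 peak at 131.68 stands to the right of all others, and the points of 22 peaks lie at or above the median of all peaks (dashed line).

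The DNA under the leading peaks shows what the bound Trim regions look like. The 150 bases around the centre of 4 peaks are printed from the plus strand of NCBIM37 (mm9), with matches to the canonical hexamer TGTGGT or its variants (TGCGGT, the variant CGTGGT, or the variant CGCGGT) in capitals. Both strands were searched, so TGTGGT may read as ACCACA, and likewise TGCGGT may read as ACCGCA. Trim17 and Trim8 are shown as the 2 highest scores, Trim25 as the strongest peak of the RIG-I ligase, and Trim37 as a site deep inside a gene.
Trim17, chr11:58773807-58773956, score 131.68: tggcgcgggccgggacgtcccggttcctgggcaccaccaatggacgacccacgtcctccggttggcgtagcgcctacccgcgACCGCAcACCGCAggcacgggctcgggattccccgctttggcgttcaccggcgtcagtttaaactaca
Trim8, chr19:46578414-46578563, score 44.17: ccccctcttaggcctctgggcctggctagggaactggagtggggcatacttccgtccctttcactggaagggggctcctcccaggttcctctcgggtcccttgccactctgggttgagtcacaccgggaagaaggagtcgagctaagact
Trim25, chr11:88854929-88855078, score 20.62: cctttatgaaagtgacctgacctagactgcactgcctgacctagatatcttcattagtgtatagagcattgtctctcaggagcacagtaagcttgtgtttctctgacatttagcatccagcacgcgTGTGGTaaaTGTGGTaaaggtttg
Trim37, chr11:87025900-87026049, score 17.32: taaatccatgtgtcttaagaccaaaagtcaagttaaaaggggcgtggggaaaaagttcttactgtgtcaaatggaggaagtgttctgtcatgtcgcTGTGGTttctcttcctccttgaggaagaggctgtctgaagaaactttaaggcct
The Trim17 window held TGCGGT 2 times in a GC-rich stretch, the Trim25 window held TGTGGT 2 times, and the Trim37 window held it 1 time. The Trim8 window held none of the hexamers, although the whole peak, the widest of the Trim peaks at 956 bp, held TGTGGT 1 time at 316 bp from its centre.

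The largest group of neighbouring members was the Trim cluster of chromosome 7, which runs from Trim6 to Trim30d and holds antiviral genes that have multiplied in rodents. Of its 11 records 7 were bound (63.6%, interval 35.4 to 84.8), by 7 peaks with a median score of 17.3. The 39.9% of all protein-coding genes stood inside this interval. All of its records are on the list of interferon-inducible Trim genes used here. The records overlap: Trim34a, as annotated, spans chr7:111392971-111489207 and includes Trim5, Trim12a and Trim34b, and 4 of the 7 peaks counted for several records.

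Trim5, the restriction factor that recognises retroviral capsids in primates, held peaks of 17.32 (chr7:111442451-111442929) and 37.33 (chr7:111445163-111445632), centred 6082 and 8789 bp upstream of its TSS. Both peaks lay between Trim5 and Trim34b, which is transcribed away from them, and their centres were 6054 and 3347 bp upstream of the TSS of Trim34b. Trim12a, a rodent relative of Trim5, held the strongest peak of the cluster, with a score of 43.14, in intron 1 and 487 bp from its TSS (chr7:111463076-111463665). The same peak fell in intron 1 of Trim34b, at 14626 bp from that TSS.

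Trim34a had the most peaks of any member, 5, of which 3 were those just described. The other two were its own: a peak of 40.1 centred 3446 bp upstream of the TSS (chr7:111389311-111389739) and a peak of 13.43 at the TSS, with its centre 15 bp downstream (chr7:111392890-111393297). Trim12c held a peak of 9.84 centred 1 bp from its TSS (chr7:111501649-111502105), which also lay within 10 kb of both records of Trim30b. Trim30b, a relative of the Toll-like receptor regulator Trim30a, had its own peak of 7.06, centred 156 bp upstream of a TSS (chr7:111518243-111518865).

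The remaining 4 records of the cluster, Trim6, Trim30a, Trim30c and Trim30d, had no peak under the rule. Trim30c and Trim30a fell just outside it. A peak of 12.69 (chr7:111549187-111549617) was centred 10302 bp from the TSS of Trim30c, which is its nearest protein-coding TSS, and 11379 bp from that of Trim30a. For Trim6, which with its unanchored ubiquitin chains promotes interferon signalling, the nearest peak was the one upstream of Trim34a, at 15504 bp. The nearest peak to Trim30d was 82538 bp away.

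**Figure D2:**
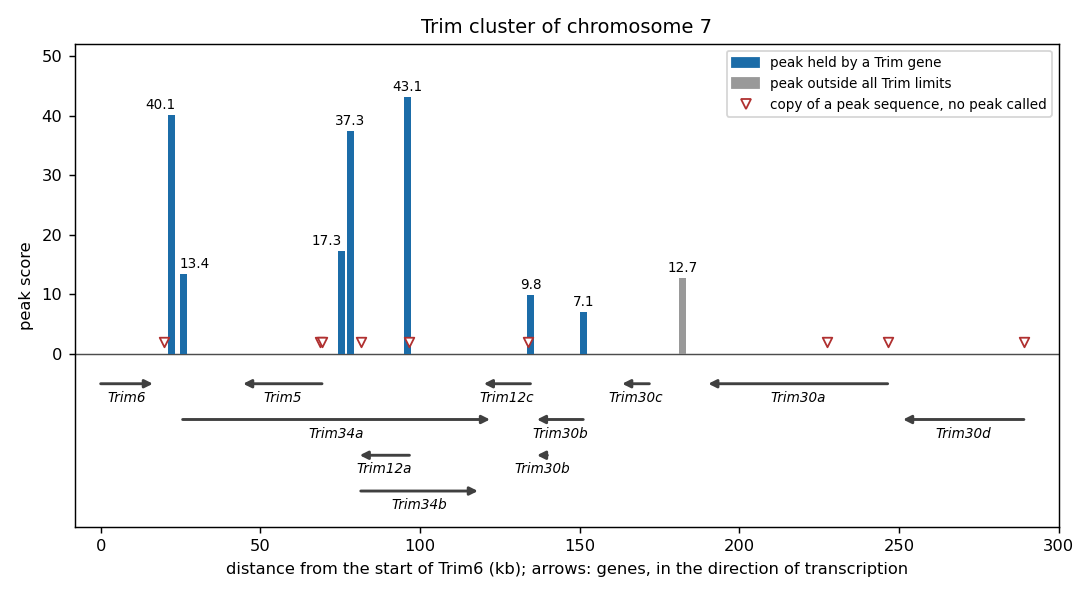
Trim cluster of chromosome 7, with distance from the start of Trim6 in kb on the horizontal axis, peak score as bars, genes as arrows and copies of peak sequences without a called peak as triangles (aligned over at least 300 bases at 80% identity or more). The 3 bars of 37.33 and above, up to 43.14, stand upstream of Trim34a, upstream of Trim34b and in Trim12a, and no bar stands over Trim30a or Trim30d.

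Since the cluster consists of duplicated genes, each peak sequence was aligned to the rest of it. The peaks of 40.1 and 37.33 proved to be copies of each other, with 96.1% identity over 433 aligned bases, and lay 3446 and 3347 bp upstream of Trim34a and Trim34b, respectively. Each held TGTGGT 1 time, at the same place of the copy. In the 60 bases around it, printed from the plus strand of NCBIM37 with the hexamer in capitals, the copies differed by a single base.
Trim34a upstream, chr7:111389556-111389615, score 40.1: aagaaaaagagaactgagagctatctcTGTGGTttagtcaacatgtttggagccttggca
Trim34b upstream, chr7:111445410-111445469, score 37.33: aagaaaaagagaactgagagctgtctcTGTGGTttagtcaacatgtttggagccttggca

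The peak of 43.14 in intron 1 of Trim12a held TGTGGT 2 times, and was called at 1 of its 3 copies. The copy in Trim5 had 95.8% identity over 591 aligned bases, and the copy in Trim12c had 92.1% over 592. Neither held a called peak. The Trim12c copy (chr7:111500937-111501528) lay next to a called peak, however, that of 9.84 at the TSS of Trim12c (chr7:111501649-111502105). The bases aligned to each hexamer are in capitals below.
Trim12a peak, hexamer on the plus strand, chr7:111463329-111463388: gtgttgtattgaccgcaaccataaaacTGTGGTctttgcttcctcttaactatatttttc
Trim12c copy, no peak, chr7:111501192-111501251: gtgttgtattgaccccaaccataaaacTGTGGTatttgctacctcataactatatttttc
Trim5 copy, no peak, chr7:111435978-111436037: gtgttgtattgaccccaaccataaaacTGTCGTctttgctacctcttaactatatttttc
Trim12a peak, hexamer on the minus strand, chr7:111463459-111463518: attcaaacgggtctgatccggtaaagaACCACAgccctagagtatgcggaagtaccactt
Trim12c copy, no peak, chr7:111501322-111501381: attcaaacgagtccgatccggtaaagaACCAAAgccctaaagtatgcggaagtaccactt
Trim5 copy, no peak, chr7:111436108-111436167: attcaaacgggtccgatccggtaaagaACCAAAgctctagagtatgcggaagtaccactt
The Trim5 copy lacked both hexamers of the Trim12a sequence, and the Trim12c copy kept the plus-strand hexamer while ACCAAA stood at the other. By count, however, the Trim12c copy held TGTGGT 2 times, as many as the Trim12a peak, and the Trim5 copy held none. Whether these bases bear on the calls was not tested.

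The authors aligned reads uniquely, so a stretch whose 50-base reads occur elsewhere in the genome cannot receive them. Only exact matches were counted here. Where the alignment allowed mismatches, a setting not given in the sources used, reads of near copies may be lost too. The shares of unique reads are therefore upper limits. Reads of 50 bases that occur once in the assembly could start at 78.8% of the positions of the Trim12a peak, at 93.9% of those of its Trim12c copy and at 74.5% of those of its Trim5 copy. The Trim34a and Trim34b pair had 79.0% and 80.9%. The Trim peaks outside the cluster stood at 95% or more, and 38 of the 43 Trim peaks reached 90%.

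At the TSS of Trim12c the peak of 9.84 held 1 hexamer next to a match to the core of the interferon-stimulated response element (ISRE), searched as a pair of GAAA with any 2 bases between them, with 1 base in common. Copies of this promoter stand at the TSSs of Trim12a and Trim5, with 94.97% and 95.37% identity, and had no called peak in the copied stretch. The Trim12a copy (chr7:111463756-111464211) lay next to the peak of 43.14 (chr7:111463076-111463665), so Trim12a was bound beside it.
Trim12c TSS, score 9.84, chr7:111501865-111501924: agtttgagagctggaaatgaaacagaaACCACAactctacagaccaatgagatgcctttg
Trim12a TSS, no peak, chr7:111463972-111464031: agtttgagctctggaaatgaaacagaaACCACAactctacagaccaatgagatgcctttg
Trim5 TSS, no peak, chr7:111436642-111436701: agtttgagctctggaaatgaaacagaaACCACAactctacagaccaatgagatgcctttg
Both copies kept the hexamer and the ISRE core. Unique 50-base reads could start at 79.0% of the positions of the Trim12c peak, but at 28.3% of the Trim12a copy and 14.6% of the Trim5 copy. Over 1 kb to each side of the TSS the shares were 64.4% for Trim12a and 60.5% for Trim5. The part of these shares in the missing calls was not tested.

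Copies of 2 further peaks of the cluster were mostly unique by exact match. The peak of 13.43 at the TSS of Trim34a has a copy 86 bp from the TSS of Trim34b with 87.6% identity, at which every 50-base read is unique, and none was called there. The peak of 17.32 between Trim5 and Trim34b has a copy near Trim34a with 92.7% identity and 94.0% unique reads, where GCCACG stood at its ACCACA, and no peak was called. With shorter or less similar matches counted as well, the sequence of this peak had 37 matches in the cluster.

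The Trim30 genes gave a second set of copies. The peak of 7.06 at Trim30b and the peak of 12.69 near Trim30c had 86.2% identity. The Trim30b peak held none of the 4 hexamers and the other held TGTGGT 2 times. The copies at the TSSs of Trim30a and Trim30d had 84.1% and 83.3% identity to the Trim30b peak, 85.6% and 86.0% unique reads, and no called peak. A further copy inside Trim30a had 86.2% identity and 98.9% unique reads, and no peak was called there either. At one of the hexamers the sequences read as follows.
Near Trim30c, score 12.69, chr7:111549402-111549461: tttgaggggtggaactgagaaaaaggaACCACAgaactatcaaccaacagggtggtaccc
Trim30a TSS, no peak, chr7:111613716-111613775: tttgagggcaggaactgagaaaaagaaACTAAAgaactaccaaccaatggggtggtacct
Trim30d TSS, no peak, chr7:111656377-111656436: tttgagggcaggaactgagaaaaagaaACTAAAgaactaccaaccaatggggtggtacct
At the Trim30a and Trim30d promoters ACTAAA stood in the place of ACCACA, and an ISRE core overlapped it by 1 base. No such core was in the segment near Trim30c.

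Outside the cluster, 5 members were on the interferon-inducible list, and 3 of them were bound. Trim25, which ubiquitinates RIG-I, had a peak of 20.62 centred 5687 bp upstream of its TSS, shown above with its 2 TGTGGT, and a peak of 12.69 in intron 2 (chr11:88867771-88868145). The upstream peak was shared with its neighbour Coil. Trim26, which lies in the major histocompatibility complex (MHC), had a peak of 9.62 centred 141 bp upstream of its TSS (chr17:36973757-36974120), and this peak held the ISRE core 2 times and TGACGT 2 times. Trim14, an adaptor of the mitochondrial antiviral protein Mavs, had a peak of 3.69 (chr4:46521120-46521372), which was among the weakest, lay 26040 bp from its TSS and was nearer to the TSS of Nans. Trim21, the cytosolic antibody receptor, and Trim56, which acts on Sting, were unbound, and their nearest peaks were 123820 and 35023 bp away.

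In all, 10 of the 16 records on the list were bound (62.5%, interval 38.6 to 81.5), by 11 peaks with a median score of 13.4, and the background of 39.9% stood inside the interval. The bound records Trim34a, Trim34b, Trim12a and Trim5 share peaks, so they are not separate observations. With peaks in the gene body alone 5 of the 16 were bound, beside 23.2% of all protein-coding genes. With scores at or above the list median 5 were bound, beside 24.97%.

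The transcriptional cofactors of the family, which carry a PHD finger and a bromodomain, were bound at 3 of 4 members. The interval of this share was 30.1% to 95.4%, and the 39.9% of all protein-coding genes stood inside it. Trim28, the corepressor that zinc finger proteins recruit to silence retroelements, had a peak of 16.53 centred 150 bp downstream of a TSS (chr7:13609467-13609835). Its other peaks, of 9.16 and 18.13, were at the TSSs of its neighbours Chmp2a (78 bp) and Ube2m (37 bp). Trim24, a cofactor of nuclear receptors, had a peak of 14.96 centred 124 bp upstream of its TSS (chr6:37820426-37820948), which held CGCGGT 4 times. Trim33, which acts on Smad4 in TGF-beta signalling, had a peak of 13.43 centred 55 bp upstream (chr3:103082848-103083475). Each of the 3 genes was thus bound at its promoter, with a score between 13.43 and 16.53. None of these promoter peaks held TGTGGT, while all of them held at least 1 of the other hexamers. Trim66 had no peak by the rule, and the nearest, of 12.19, was 10867 bp from its TSS.

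The SPRY class is the largest, and 21 of its 39 records were bound (53.8%, interval 38.6 to 68.4). The background of 39.9% stood inside the interval. Trim17, a ligase linked to neuronal apoptosis, led the family. Its peak of 131.68 (chr11:58773555-58774208) lay in intron 1 of the long transcript and 3423 bp upstream of an internal TSS. It held TGCGGT 2 times, TGTGGT 1 time and TGACGT 1 time. A peak of 25.84 was centred 1169 bp upstream of the gene (chr11:58766819-58767218) and a peak of 10.98 was centred 179 bp upstream of it (chr11:58767862-58768155). The neighbour on the other side, the histone gene Hist3h2a, lies within 10 kb of all 3 peaks. Trim11, next to Trim17, had 3 weak peaks, with scores of 6.88 and 7.06 at its TSS and 5.81 in intron 3. The neighbours thus ranged from the strongest to nearly the weakest scores of the family.

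Trim7 and Trim41, another pair of neighbours, were bound by 4 peaks. Trim7, which binds glycogenin, had a peak of 37.12 centred 105 bp upstream of an internal TSS in intron 1 (chr11:48651546-48652276). A peak of 11.24 lay beyond the end of Trim7 (chr11:48666935-48667636). Trim41, a ligase that binds viral nucleoproteins, had a peak of 26.73 with its centre 8 bp from the TSS (chr11:48630512-48631214), which is also 8779 bp from a TSS of Trim7. A peak of 3.5 lay between the genes. Trim7 and Trim41, with Trim12a, were the members with a peak within 1 kb of a TSS that scored in the upper quartile.

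Trim69, a centrosomal protein, had a peak of 34.2 centred 4610 bp upstream of its TSS (chr2:121981586-121982067), between the gene and B2m, the light chain of MHC class I. It also counted for B2m and Patl2. It was the one peak among the 10 strongest Trim peaks without any of the 4 hexamers. Trim39 had peaks of 18.13 in intron 3 (chr17:36402833-36403175) and of 17.32 centred 132 bp from its TSS (chr17:36408592-36409042). Trim65, a ligase of the RNA sensor MDA5, shared a peak of 14.96 in its exon 1 (chr11:115991727-115992150) with Trim47 and Mrpl38, and the same genes shared the weakest Trim peak, with a score of 3.17.

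The other bound SPRY members had scores below the median of the list. Trim35 had 11.96 at 278 bp from its TSS. Trim27, a ligase of Nod2, had 10.29 at 7695 bp upstream. Trim16, which acts in autophagy of damaged endosomes, had 8.49 in intron 6, at 66 bp from the TSS of Fbxw10.

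Members with other C-terminal domains or none came next. Trim8, a regulator of cytokine signalling, had the second highest score of the family, 44.17, in intron 1 and 2350 bp from its TSS (chr19:46578011-46578966), and held no other peak. Trim44, a stabiliser of Mavs, had 16.53 centred 370 bp upstream (chr2:102241264-102241591). These were 2 of the 8 members without a C-terminal domain. Trim37, a member with a MATH domain that is mutated in mulibrey nanism, had a peak of 10.53 at 88 bp from its TSS (chr11:86940467-86940868) and the stronger one of 17.32 in intron 22 (chr11:87025784-87026165). Trim45, with a filamin domain, had 10.53 at 5137 bp upstream and 9.62 at 16 bp from its TSS. The NHL class had 1 of 4 bound, Trim3, with 6.57 at 25 bp from the TSS of Arfip2. The microtubule-binding members with a COS box had Trim36 (7.06, intron 4) and Trim54 (5.36, intron 1) bound among 8. Trim23, Trim13 and Trim59 were unbound.

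**Figure D3:**
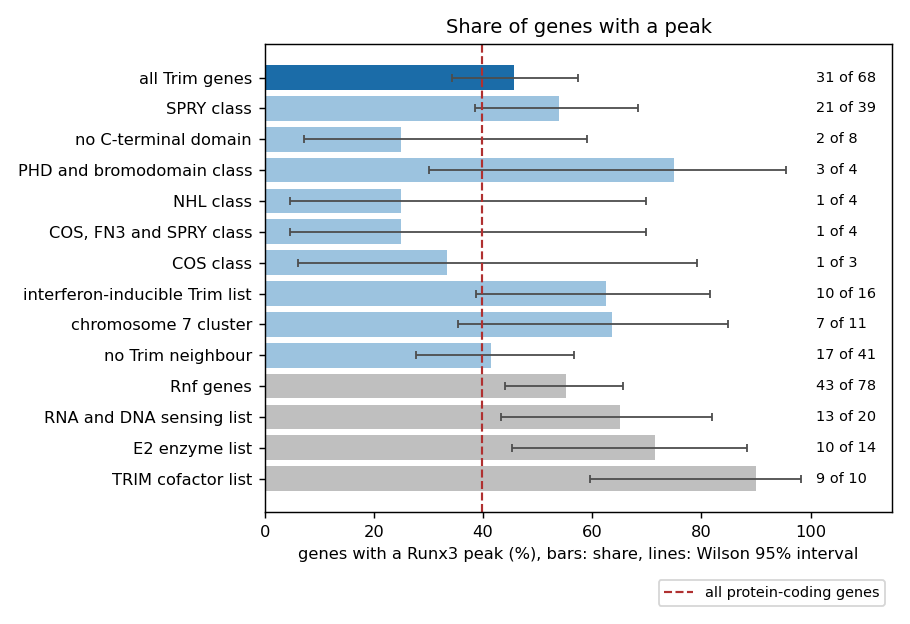
Share of genes with a Runx3 peak in percent for the Trim genes, their classes and 4 other gene lists, with Wilson 95% intervals as lines, counts at the right and the 39.9% of all protein-coding genes as the dashed line. The interval of the Trim genes, and of each Trim class and group drawn, contains the dashed line, while those of the 4 other lists (grey) lie above it. The lists were chosen with earlier results of these data known, so the intervals are no test.

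The 37 unbound records lay at very different distances from Runx3 peaks. Besides Trim30c, Trim66 and Trim30a, the muscle and neuronal members Trim46 and Trim55 were near the limit, with peaks at 11110 and 15810 bp, and so was Trim38, a regulator of Toll-like receptor signalling, at 17064 bp. Just inside the limit were peaks of Trim47 at 9197 bp, Trim5 at 8789 bp and Trim7 at 8779 bp. Each of these 3 bound genes also had a nearer peak, at 3414, 6082 and 105 bp, respectively. Among records with a peak within 10 kb of a TSS, the nearest peak was most distant for Trim27 (7695 bp) and Trim3 (6805 bp). The farthest of the unbound records were Trim52 at 2393021 bp, Trim32 at 1222258 bp and Trim42 at 470022 bp. Whole groups were without a peak: the 3 records Trim75, Trim60 and Trim61 of chromosome 8, the 3 Trim43 genes of chromosome 9, and the pair Trim21 and Trim68. In the MHC group of 5 from Trim26 to Trim31, Trim26 alone was bound. In the stretch from the gene to its limit, unique 50-base reads could start at under 50% of positions at 3 unbound records, which were Trim43a (45.8%), Trim43b (45.8%) and Trim43c (43.8%), and at none of the bound ones.

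By position relative to the nearest Trim TSS, 19 of the 43 peaks (44.2%) were centred within 1 kb of it, with a median score of 13.4. Upstream peaks numbered 11 (median 17.3), intronic peaks 10 (median 10.6) and downstream peaks 3 (median 11.2). The median distance was 2350 bp. Measured to the nearest of all genes that hold the peak, 53.5% were within 1 kb, 23.3% intronic and 20.9% upstream, beside 46.8%, 37.4% and 11.1% of the 11727 peaks assigned to any protein-coding gene. Many of these peaks had more than 1 holder: 8 were shared between Trim genes, 14 were also held by a gene outside the family, and for 37 the nearest protein-coding TSS was that of a Trim gene. Trim14, Trim16 and Trim3 had no peak that was nearest to a Trim TSS.

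**Figure D4:**
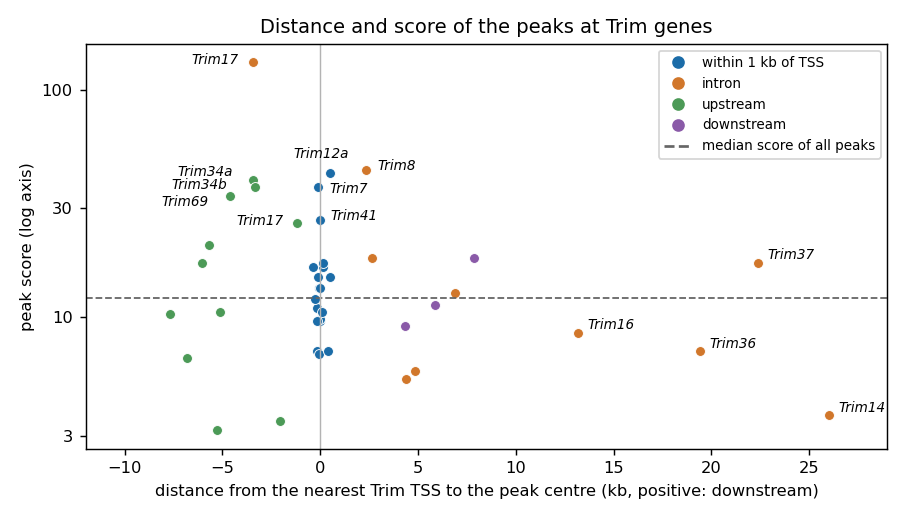
Distance in kb from the nearest Trim TSS to the centre of each of the 43 peaks (negative upstream, positive downstream) against its score on a log axis, coloured by position. The 19 peaks within 1 kb of a TSS range up to 43.14, and the strongest peak, in Trim17, lies 3423 bp upstream of an internal TSS.

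Bound Trim genes were longer and had more TSSs than unbound ones, as in the genome at large, and the rule takes in the gene body and every TSS. The median length was 20.9 kb for bound and 11.9 kb for unbound Trim records, beside 23.02 and 11.04 kb for all protein-coding genes. Median TSS numbers were 4 and 2 for Trim records. The CpG content of the promoters went the same way. Of the 24 Trim records whose start region (500 bp to each side of the 5' end) had an observed to expected CpG ratio of at least 0.6, 16 were bound (66.7%), against 15 of the other 44 (34.1%). For all protein-coding genes the shares were 59.0% and 23.95%. CpG-rich starts made up 51.6% of bound Trim records and 67.4% of all bound genes. All records of the chromosome 7 cluster, bound and unbound, were in the CpG-poor group.

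The canonical hexamer TGTGGT was found in 20 of the 43 Trim peaks (46.5%, interval 32.5 to 61.1), beside 54.0% of all peaks. In windows of equal width placed 10 kb downstream the shares were 34.9% and 30.9%. Within the 200 bp around the centre, 14 Trim peaks (32.6%) and 41.8% of all peaks held it. With the 3 variants named above added, 37 Trim peaks (86.0%, interval 72.7 to 93.4) and 76.6% of all peaks held at least 1 hexamer, beside 48.8% and 39.0% of the windows. TGCGGT was in 37.2% of Trim peaks and 20.1% of all peaks. The median score was 12.3 with and 13.4 without TGTGGT among Trim peaks, and 14.2 and 10.5 among all peaks. Of the 10 strongest Trim peaks, 7 held TGTGGT.

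Motifs of other factors were searched as well, on both strands of the whole peak. TGACGT, the core of cAMP-responsive and zDC sites, was in 8 Trim peaks (18.6%) and in 11% of all peaks. GAGGAA, a core of PU.1 and other Ets sites, was in 53.5% and 53.6%. TGANTCA, the AP-1 site, was in 6.98% and 13.2%, and the ISRE core in 11.6% and 6.48%. In promoters, taken from 250 bases before to 50 after the 5' end of each gene, the ISRE core was in 10 Trim records (14.7%), beside 3.78% of all protein-coding genes. All 10 were on the interferon-inducible list: Trim5, Trim12a, Trim12c, Trim14, Trim26, Trim34a and Trim34b were bound, and Trim21, Trim30a and Trim30d were not. All of these but Trim14, Trim21 and Trim26 lie in the chromosome 7 cluster, where promoters are copies of each other. They are therefore not separate observations. TGTGGT was in 16 Trim promoters (23.5%) and in 15.3% of all promoters. It stood together with the ISRE core in the promoters of Trim5, Trim12a, Trim12c and Trim14.

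The genes with which TRIM proteins work were also looked up by the same rule. Of 4 TRIM proteins under other symbols, Mefv, the pyrin of inflammasomes, had a peak of 68.9 and the microtubule ligase Mid1 one of 21.94. Pml was bound too, with 9.84, and Mid2 had no peak. A list of 20 genes of RNA and DNA sensing also took in other genes of innate signalling, such as Nod2 and Myd88. Of these 20 genes 13 were bound (65.0%, interval 43.3 to 81.9), beside 39.9% of all protein-coding genes. The share is that of the whole list and not of RNA and DNA sensors alone. The interval lay above that background, but the list was written by hand with earlier results of these data known, so this is no test. The median length of these genes was 24.3 kb, beside 15.4 kb for all. Among them the highest scores were those of Nod2, a sensor of bacterial peptides (69.27), and of Irf3, the factor that turns on interferon genes, with 51.5 at 85 bp from its TSS. Ddx58, which encodes the Trim25 target RIG-I, had a peak of 46.24. Dhx58, Mavs, Ikbke, Tab2, Tab3, Irf8 and Ticam1 were without a peak under the 10 kb rule.

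Of 10 cofactors of Trim28, Trim24 and Trim33, 9 were bound, all but Smad2 (interval of the share 59.6% to 98.2%, beside the same 39.9%), with the highest scores at Smad3 (55.82) and the retinoic acid receptor gene Rara (45.2). Of 14 E2 enzymes 10 were bound (71.4%, interval 45.4 to 88.3), led by Ube2e2 (46.98) and Ube2e1 (24.06), while Ube2d1, Ube2v2, Ube2w and Ube2j1 were not. Both intervals lay above the background, but the lists were written by hand with earlier results of these data known. The intervals are therefore no test of these groups. These lists have longer genes than the Trim family, with median lengths of 40.4 kb for the cofactors and 33.1 kb for the E2 enzymes, and no share was adjusted for length. The CpG content of gene starts was not compared for these lists, nor for the sensing genes above or the Rnf genes below. Of all protein-coding genes, 59.0% of those with CpG-rich starts and 23.95% of the others were bound. Among genes named Rnf, another family of RING proteins, 43 of 78 were bound (55.1%, interval 44.1 to 65.7, above the background of 39.9%), with a median length of 27.7 kb and a median peak score of 12.7, the same as that of the Trim peaks.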

How the data were processed

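Reads of 50 bp were mapped by the authors with bowtie, keeping unique alignments to mm9, and bound regions were called with MACS2. The submitters' processing notes also name CASAVA 1.8. Versions of bowtie and MACS2, the threshold and the handling of duplicates are not given in the sources used here. The deposited list holds 1 call for 4 samples, with a peak score as MACS2 wrote it. The number of reads behind each peak was not analysed here, so the absence of a peak means that none was called at this depth.

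Genes and TSSs came from GENCODE M1 and sequences from NCBIM37, the same build. Peaks were placed by their centre, and 1 peak could count for several genes. Coordinates count from 1. Intron numbers refer to the longest coding transcript of a gene. Trim records with at most 200 kb between them formed a cluster. Copies of the cluster peaks were found with blastn 2.17.0. A 50-base read was unique where it occurred once, by exact match, among chromosomes 1 to 19, X and Y on both strands.

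Bound members were counted beside all protein-coding genes. The samples give no replicate values, so no test was run, and Wilson 95% intervals cover counting error alone. The members, the gene lists and classes (written by hand from general knowledge) and the rule for naming genes were chosen with earlier results of these data known. Described in full were the 10 members with the highest score, the 5 with the most peaks, the interferon-inducible list, and members with a peak in the upper quartile within 1 kb of a TSS. For each gene list the 2 highest scores and the unbound genes were named, and Ddx58 and Pml were added after their values were seen. Sequences were chosen from those of the strongest peak of each member and the cluster copies. Alternatives were stricter scores, joined peaks, other distances and gene limits, and other motif windows. The counting code was tested on simulated data. Python 3.11.15, numpy 2.4.6, scipy 1.17.1, Biopython 1.88, numba 0.67.0 and matplotlib 3.10.9 were used.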

Additional observations from a re-analysis of the deposited data

How the results depend on the processing

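The counts followed the rule. In place of 31 bound Trim records and 43 peaks there were 18 and 22 with scores at or above the list median, 9 and 9 at or above the upper quartile, 48 and 95 with a distance of 50 kb, and 17 and 21 in the gene body alone. The share of all protein-coding genes moved with them from 39.9% to 24.97%, 13.9%, 60.2% and 23.2%. That share was 35.9% at 5 kb, 32.7% at 1 kb, 36.7% with the TSS window alone, 39.25% with protein-coding transcripts alone, 39.21% with 1 TSS per gene and 36.5% by the nearest TSS. The stricter scores raised the median Trim score to 18.1 and 37.3 by construction. TGTGGT was in 66.7% of Trim peaks in the upper quartile, and any of the 4 hexamers in 86.0% of all Trim peaks. Trim peaks within 1 kb of a TSS fell from 19 to 10 at the list median, 3 at the upper quartile and 9 in the gene body. Bound interferon-inducible records fell from 10 to 5, 4 and 5, in that order, and bound sensing genes from 13 to 7 at the upper quartile. With a distance of 50 kb, 14 of the 16 interferon-inducible records and 19 of the 20 sensing genes were bound, beside the 60.2% of all genes. Without the chromosome 7 cluster, an alternative chosen after seeing the data, 24 of 57 records were bound by 36 peaks with a median score of 11.6, and 41.7% held TGTGGT. No paired analysis was possible because the list is 1 call over pooled samples without values per replicate, and no replicate could be left out for the same reason. The score has no stated unit and depth was not analysed, so weak sites below the call threshold are not covered.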

Other observations

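Chromosome 11 carried 10 of the 68 Trim records, a tally made after seeing the data. Of these, 9 were bound (Trim41, Trim7, Trim17, Trim11, Trim16, Trim37, Trim25, Trim47 and Trim65) and Trim58, a ligase of late erythroid cells, was not. They held 17 of the 43 Trim peaks, among them the strongest (131.68) and the weakest (3.17). Of all 1653 protein-coding genes of chromosome 11, 47.4% had a peak by the same rule. Trim47 and Trim65 held the same peaks, and both peaks of Trim41 also counted for Trim7. The only peak of Trim16 was nearest to the TSS of Fbxw10. The 9 bound records are therefore not separate observations.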
